A study of Mus musculus with 18 samples.

Results

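Desmosome transcripts were measured in 6 sorted cell populations of mouse trachea and lung. The 10 genes described are the desmogleins *Dsg2* and *Dsg3*, the desmocollins *Dsc2* and *Dsc3*, the plakophilins *Pkp1*, *Pkp2* and *Pkp3*, plakoglobin (*Jup*), desmoplakin (*Dsp*) and *Perp*. They were chosen by name, as genes of the desmosome, out of 27179 genes counted, and all 10 were found under their Entrez identifiers and passed the filter on low counts. RNA-seq was done on untreated C57BL/6 mice, which the study's methods describe as young adult males. From the tracheas of mice 1 to 3, cells positive for NGFR gave the basal stem cells (BSCs), and cells negative for NGFR gave a non-basal population. From the lungs of mice 4 to 6, EpCAM-positive cells were sorted as CD104-positive CD24hi cells (labelled airway luminal, enriched in ciliated cells), CD104-positive CD24lo cells (airway luminal, enriched in club cells) and CD104-low alveolar cells, and the EpCAM-negative cells were taken as non-epithelial. Each population had 3 libraries, 1 per mouse and 18 in all. A sorted gate is a mixture as far as its surface markers allow, and the NGFR-negative gate was defined by the absence of a single marker. Tracheal epithelium was peeled with dispase and dissociated with trypsin whereas lungs were digested with collagenase, so organ, mouse and dissociation cannot be told apart in any comparison of trachea with lung.

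Desmosomes are spot-like junctions that fasten epithelial and heart muscle cells to their neighbours. Desmogleins and desmocollins are cadherins that span the membrane and bind those of the adjoining cell, plakoglobin and the plakophilins bind the cadherin tails inside the cell, and desmoplakin ties this plaque to keratin filaments. *Dsg2*, *Dsc2* and *Pkp2* are known from simple epithelia and heart, while *Dsg3*, *Dsc3* and *Pkp1* are known from stratified epithelia such as the epidermis. In the airway, basal cells sit on the basement membrane and anchor the columnar cells above them. *Perp* is a tetraspan membrane protein found in desmosomes and is known as a target of p53 and p63.

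Counted reads per library ranged from 29317215 to 32993621 in trachea and from 9811503 to 13208897 in lung, so that rare transcripts were measured with more counting error in lung. The tracheal counts exceed the depth per mouse library that the study's methods state, and they were used as deposited. Marker transcripts followed the labels, with limits. The summed level of the basal markers *Krt5*, *Krt14*, *Trp63* and *Ngfr* was 4160 to 4335 CPM (reads scaled to a common library size) in BSCs, 312 to 411 CPM in non-basal cells, 121 to 217 CPM in CD24lo cells, 12.1 to 17.3 CPM in CD24hi cells and 1.23 to 3.13 CPM in alveolar cells. The 3 club cell markers *Scgb1a1*, *Scgb3a2* and *Cyp2f2* summed to 245904 to 344371 CPM in CD24lo cells, but still to 61820 to 68782 CPM in non-basal cells, 37732 to 49686 CPM in CD24hi cells and 14367 to 16533 CPM in BSCs, above the basal sum of the same BSC libraries. The alveolar type 2 markers *Sftpc*, *Sftpb* and *Lamp3* summed to 147945 to 164345 CPM in alveolar cells, 6049 to 7913 CPM in CD24lo cells and 1346 to 2465 CPM in CD24hi cells. The part of club or alveolar type 2 cells in the member levels of other gates was not tested. The 3 ciliated markers *Foxj1*, *Dnah5* and *Rsph1* summed to 2787 to 2884 CPM in CD24hi cells and 216 to 476 CPM in CD24lo cells. Although CD31-positive cells were gated out in the lung preparation, the endothelial markers *Pecam1*, *Cdh5* and *Cldn5* summed to 111 to 454 CPM in CD24hi cells and 185 to 569 CPM in CD24lo cells, with the highest value of each gate in the library of mouse 4, and to at most 1.73 CPM in any tracheal library. In alveolar cells the sum was 103 to 200 CPM, with the lowest value in the library of mouse 4. In EpCAM-negative cells it was 317 to 518 CPM, highest in mouse 4.

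In the mm10 assembly (coordinates from the GRCm38.p6 gene table), the 4 cadherin genes lay in the same region of chromosome 18, with *Dsc3* at 19960930 to 20002410, *Dsc2* at 20030633 to 20059554, *Dsg3* at 20510274 to 20541310 and *Dsg2* at 20558074 to 20604526. The other members were spread over the genome. *Pkp1* lies on chromosome 1 (135871394 to 135919207), *Pkp3* on chromosome 7 (141078229 to 141090511), *Perp* on chromosome 10 (18845071 to 18857073), *Jup* on chromosome 11 (100368856 to 100397839), *Dsp* on chromosome 13 (38151294 to 38198577) and *Pkp2* on chromosome 16 (16213345 to 16272712). Reads were counted over the exons of each gene. In the GENCODE annotation of the same assembly, 3.99% of the exonic bases of *Dsg2* overlapped the gene model *Gm16090* and 5.20% of those of *Dsp* overlapped *Gm10129*, and the strand setting of the counting is not given in the sources used here. No exonic base of the other 8 members was shared.

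Most desmosome transcripts were most abundant in tracheal BSCs, the basal population, and least abundant in EpCAM-negative lung cells. For 9 members the highest mean was in BSCs, and in each of these the 3 BSC libraries lay above every other library. The exception was *Pkp2*, which was higher in every other epithelial population than in BSCs. Levels are given as RPKM, the CPM after TMM scaling divided by the counted gene length in kilobases, which allows genes of unequal length to be set side by side. Summed over all 10 members, the tracheal level was 878 ± 33.5 RPKM for BSCs and 352 ± 18.4 RPKM for the non-basal population (SD, n = 3 each). In lung it was 183 ± 6.92 RPKM for CD24hi, 194 ± 17.4 RPKM for CD24lo, 123 ± 1.51 RPKM for alveolar and 37.1 ± 2.64 RPKM for EpCAM-negative cells (SD, n = 3 each). *Perp*, *Dsp* and *Jup* were the 3 members with the highest means in BSCs. In sorted bulk samples, fewer cells of a type and less RNA per cell cannot be told apart, and this holds for every level below.

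**Figure D1:**
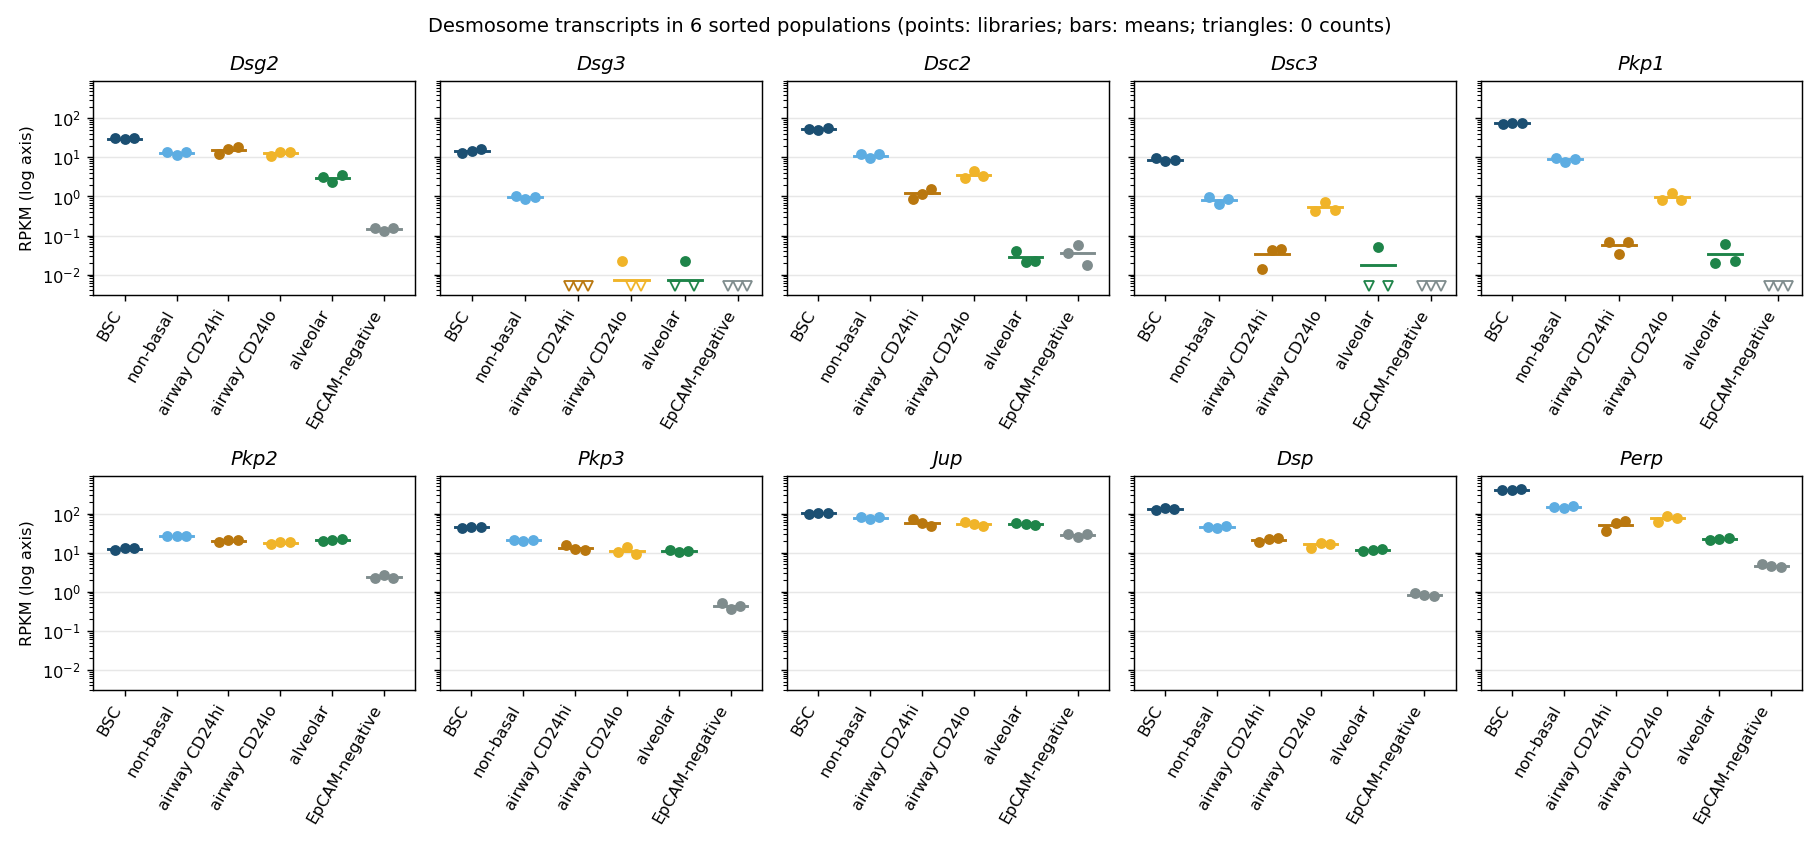
RPKM (log axis) of each desmosome gene in the 6 populations, with 1 point per library, a bar at the mean of 3 libraries and an open triangle for a library with 0 counts. All 3 BSC libraries lie above every other library for 9 of the genes, whereas *Pkp2* has its lowest epithelial mean, 12.6 RPKM, in BSCs, and *Dsg3* has at most 1 count in any lung library.

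Fold changes and tests came from a single edgeR quasi-likelihood fit of all 18 libraries, with p-values adjusted by the Benjamini-Hochberg method over 17989 genes and called under 0.05. Comparisons that share BSC, CD24lo or alveolar libraries are not independent of each other. In BSCs set against the non-basal cells of their own tracheas, 9 members were called higher in BSCs, against 21.9% of all genes tested, and 1 member, *Pkp2*, was called lower, against 26.2%. The median log2 fold change of the members was 1.50, beside -0.02 over all genes tested. Between BSCs and alveolar cells, which differ in organ and mouse as well, 9 members were higher (30.5% of all genes) and *Pkp2* was lower (35.6%). The members' median was then 3.83, beside -0.09 over all genes. It stayed at 3.83 with the genes of 1 to 3 alveolar counts set at the lower end of their counting interval, 346-fold for *Dsg3* and 168-fold for *Dsc3*. This could not move the median, because both genes remained above its middle members, *Perp* at 18.4-fold and *Dsp* at 11.0-fold.

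Non-basal tracheal cells were compared with CD24lo lung airway cells, again across organ and mouse. The gates also differed in basal marker RNA, which summed to 312 to 411 CPM in non-basal cells and 121 to 217 CPM in CD24lo cells. The part of basal cells in this comparison was not tested. Here 8 members were higher in the tracheal cells (25.3% of all genes) and 0 were lower (27.8%), with a median of 0.92 beside -0.04 over all genes. *Dsg2* and *Dsc3* were not called. Within the lung, CD24hi and CD24lo cells gave calls in both directions. There, 1 member, *Dsp*, was higher in CD24hi cells (27.8% of all genes) and 4, namely *Dsc2*, *Dsc3*, *Pkp1* and *Perp*, were lower (27.2%). Over the 9 members with enough reads for a fold, the median was 0.10, beside -0.06 over all genes. These 5 calls became 8 with library size in place of TMM scaling and 3 when the 6 libraries compared were fitted alone.

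CD24lo airway cells and alveolar cells came from the same lungs. Of the members, 6 were higher in the airway cells (24.2% of all genes) and *Pkp2* was lower (24.2%), with a median of 1.77 over 9 members beside 0.03 over all genes. The mean of the 3 lung epithelial populations was also set against EpCAM-negative cells. In this contrast 9 members were higher in the epithelium (33.4% of all genes) and 0 were lower (35.5%), with a median of 4.25 over 9 members, or 3.75 with *Dsc3* and *Pkp1*, which had 0 counts in EpCAM-negative cells, set at a floor of 3 counts over the group. The median over all genes was 0.01. Because the contrast averages the gates, a call need not hold for each of them. *Dsc2* had 4 reads in alveolar and 6 in EpCAM-negative cells, a ratio of 0.78 with a 95% counting interval of 0.16 to 3.30. In alveolar cells *Pkp1* had 5 reads and *Dsc3* had 3, and in CD24hi cells they had 10 and 7, beside 128 and 85 in CD24lo cells. The call of *Dsc2* thus describes mainly the airway gates, and those of *Pkp1* and *Dsc3* mainly the CD24lo gate. Without alveolar library 2, which held all 3 alveolar counts of *Dsc3*, the call of this gene was lost and 8 members were called. Its alveolar and EpCAM-negative libraries were then all at 0 counts, and the log2 fold change was 4.525. CD24lo cells alone held 85 reads of *Dsc3*, at least 35.9-fold above EpCAM-negative cells at the floor of 3 counts.

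**Figure D2:**
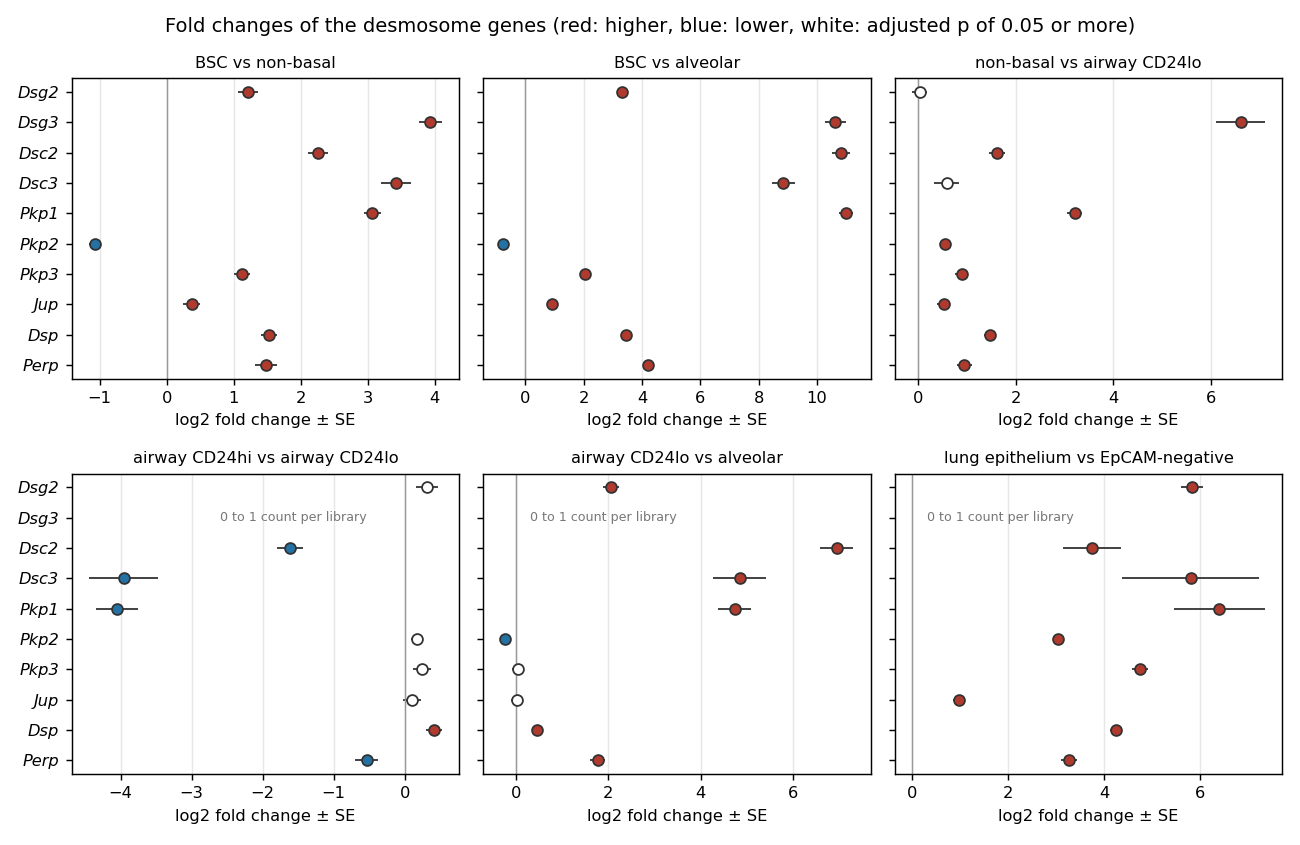
Log2 fold change (x axis, with its standard error as a horizontal bar) of each desmosome gene in the 6 comparisons, the first-named population against the second, from the edgeR fit. Red points were called higher, blue points lower and white points not called. *Pkp2* is the single blue point in both BSC panels. *Dsg3*, with 0 to 1 count per lung library, has no point in the comparisons within the lung. Points for genes with few reads in the lower group depend on the prior count and are not bounds. These are *Dsg3*, *Dsc2*, *Dsc3* and *Pkp1* in alveolar cells, *Dsc2*, *Dsc3* and *Pkp1* in EpCAM-negative cells, *Dsg3* in CD24lo cells, and *Dsc3* and *Pkp1* in CD24hi cells.

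*Dsg2*, the desmoglein of simple epithelia, was found in every epithelial population. Its level was 31.3, 29.0 and 30.5 RPKM in the BSC libraries and 13.7, 11.8 and 13.5 RPKM in the non-basal libraries. In lung it was 12.0, 16.6 and 18.8 RPKM in CD24hi cells, 10.7, 13.6 and 13.8 RPKM in CD24lo cells, 3.20, 2.33 and 3.63 RPKM in alveolar cells and 0.154, 0.130 and 0.160 RPKM in EpCAM-negative cells. BSCs stood above all other libraries, the non-basal and both airway populations overlapped, and alveolar cells lay below them. The difference between BSCs and non-basal cells was 1.22 ± 0.15 (log2 fold change ± SE, edgeR adjusted p = 3.2e-06), or 2.32-fold, and the ratio within the same mouse was 2.26 to 2.45. CD24lo cells were 4.16-fold above alveolar cells (log2 2.06 ± 0.17, edgeR adjusted p = 1.27e-08). Between non-basal and CD24lo cells the log2 difference was 0.04 ± 0.15 (edgeR adjusted p = 0.85), and its sign changed in 3 of the alternatives.

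*Dsg3*, the desmoglein of the basal layers of stratified epithelia and the antigen of pemphigus vulgaris, was close to a tracheal transcript in these libraries. It was at 12.8, 14.5 and 16.4 RPKM in BSCs and at 1.05, 0.846 and 0.967 RPKM in non-basal cells, with 1855 to 2391 reads per BSC library and 99 to 127 per non-basal library. The 12 lung libraries held 2 reads of it in all, 1 in CD24lo library 1 and 1 in alveolar library 2. In the 3 CD24hi libraries, all at 0, a limit of 3 counts per library corresponds to 0.0541 to 0.0574 RPKM, so a lower level was not detectable at this depth. BSCs exceeded non-basal cells 15.3-fold (log2 3.93 ± 0.17, edgeR adjusted p = 7.11e-10), which was the largest fold among the members in this comparison. Against CD24lo cells the ratio of summed counts was 1784 for BSCs, with a 95% exact counting interval of 320.1 to 70482, and 117 for non-basal cells, with an interval of 20.8 to 4629. BSCs were at least 789-fold above CD24hi cells, taking 3 counts over that group as the floor. Within the lung no fold is given, since every population was at or under that floor.

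Among the lung epithelial populations the desmocollins showed a wider range than the desmogleins. *Dsc2* was at 52.8, 51.4 and 56.2 RPKM in BSCs and at 12.0, 9.52 and 11.9 RPKM in non-basal cells. It was at 0.872, 1.17 and 1.53 RPKM in CD24hi cells and at 3.00, 4.60 and 3.31 RPKM in CD24lo cells. Alveolar libraries held 1 to 2 reads each and EpCAM-negative libraries 1 to 3, or at most 0.0561 RPKM. No population overlapped with the next lower, apart from these last. The BSC level was 4.79-fold that of non-basal cells (log2 2.26 ± 0.15, edgeR adjusted p = 1.98e-09), and non-basal cells were 3.06-fold above CD24lo cells (log2 1.62 ± 0.16, edgeR adjusted p = 2.45e-07). CD24hi cells were below CD24lo cells by 1.61 ± 0.19 on the log2 scale (edgeR adjusted p = 9.23e-07). From 478 reads in CD24lo and 4 in alveolar cells, the ratio was 129, with a 95% counting interval of 50.1 to 476. *Dsg2*, in contrast, was still at 559 reads over the same 3 alveolar libraries.

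*Dsc3*, the desmocollin of basal layers, was lower than *Dsc2* in BSCs, at 9.39, 8.08 and 8.54 RPKM. It was at 0.944, 0.629 and 0.853 RPKM in non-basal cells and at 0.434, 0.722 and 0.456 RPKM in CD24lo cells, and these populations overlapped. CD24hi libraries held 1, 3 and 3 reads, alveolar libraries 0, 3 and 0, and EpCAM-negative libraries 0. BSCs were 10.7-fold above non-basal cells (log2 3.42 ± 0.22, edgeR adjusted p = 4.83e-09). The excess of non-basal over CD24lo cells, 0.59 ± 0.26 on the log2 scale, was not called (edgeR adjusted p = 0.0722), but was with DESeq2 (adjusted p = 0.0371) and with mouse within organ as a block in the fit (0.62, edgeR adjusted p = 0.0327), although these populations share no mouse and the block pairs none of their libraries. CD24lo cells held 85 reads to 7 in CD24hi cells, a ratio of 16.1 with a 95% counting interval of 7.49 to 41.3, and the difference was called (edgeR adjusted p = 3.63e-06). The CD24lo library with the most basal marker RNA, library 2 at 217 CPM, was also the highest of that gate in *Dsc2*, *Dsc3*, *Pkp1*, *Pkp3*, *Dsp* and *Perp*, and by a small margin in *Pkp2*, the member with its lowest epithelial mean in BSCs; the part of basal cells in these values was not tested.

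The 5 other desmosomal cadherins of the mouse, *Dsg1a*, *Dsg1b*, *Dsg1c*, *Dsg4* and *Dsc1*, which are known from epidermis and hair follicle, did not pass the filter on low counts, and the highest mean of any in a population was 0.0411 RPKM, of *Dsg1b* in BSCs. Desmocollins made up 58.1% ± 0.369 (SD, n = 3) of the summed desmoglein and desmocollin RPKM in BSCs and 46.0% ± 1.37 (SD, n = 3) in non-basal cells. The same share was 24.6% ± 3.33 (SD, n = 3) in CD24lo cells, 7.14% ± 0.529 (SD, n = 3) in CD24hi cells and 1.62% ± 1.24 (SD, n = 3) in alveolar cells, the last from 7 desmocollin reads. These 5 epithelial populations thus ranked in this share without overlap, and what remained of cadherin RNA in alveolar cells was nearly all *Dsg2*. In EpCAM-negative cells the share was 19.7% ± 10.2 (SD, n = 3), from 1 to 3 desmocollin reads per library, and overlapped that of CD24lo cells. This share was computed after the levels had been seen and was not tested.

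*Pkp1*, the plakophilin of stratified epithelia, had the same order of populations as *Dsc3*. It was at 70.3, 76.7 and 76.5 RPKM in BSCs and at 9.58, 7.77 and 9.32 RPKM in non-basal cells. Lung levels were 0.821, 1.23 and 0.821 RPKM in CD24lo cells, 0.0673, 0.0330 and 0.0701 RPKM in CD24hi cells and 0.0196, 0.0615 and 0.0225 RPKM in alveolar cells, and EpCAM-negative libraries had 0 reads. BSCs were 8.38-fold above non-basal cells (log2 3.07 ± 0.13, edgeR adjusted p = 5.61e-11), and these in turn were 9.26-fold above CD24lo cells (log2 3.21 ± 0.15, edgeR adjusted p = 1.94e-10). The 128 reads of CD24lo cells stood against 10 in CD24hi cells, a ratio of 17.0 with a 95% counting interval of 8.94 to 36.3, and the difference was called (edgeR adjusted p = 1.65e-08). Alveolar cells held 5 reads in all, 3 of them in library 2. BSCs were at least 4202-fold above EpCAM-negative cells at a floor of 3 counts over that group.

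*Pkp2*, the plakophilin of simple epithelia and heart muscle, ran against the other members. BSC libraries were at 12.0, 12.8 and 13.1 RPKM, and non-basal libraries were at 26.0, 26.7 and 26.6 RPKM. Lung epithelial libraries lay between these groups, at 18.6, 21.0 and 21.3 RPKM in CD24hi cells, 16.2, 19.0 and 19.0 RPKM in CD24lo cells and 20.3, 21.0 and 22.4 RPKM in alveolar cells. All 12 other epithelial libraries were thus above all 3 BSC libraries, with group means at 143% to 209.7% of the BSC level. The BSC level was lower than the non-basal level by 1.07 ± 0.09 on the log2 scale (edgeR adjusted p = 1.79e-08), with a ratio within the same mouse of 0.460 to 0.491, and lower than the alveolar level by 0.75 ± 0.09 (edgeR adjusted p = 6.03e-07). CD24lo cells were slightly below alveolar cells (log2 -0.23 ± 0.09, edgeR adjusted p = 0.0373), a call that was lost with DESeq2 (adjusted p = 0.0512), with RLE factors, without the filter, with the 2 groups fitted alone, after thinning and without CD24lo library 1 or alveolar library 2 or 3. EpCAM-negative cells were at 2.25, 2.71 and 2.29 RPKM, below the lung epithelium by 3.04 ± 0.09 (edgeR adjusted p = 6.38e-15).

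*Pkp3*, a plakophilin known from many epithelia, was at 43.5, 45.8 and 45.3 RPKM in BSCs and at 21.1, 19.6 and 21.3 RPKM in non-basal cells. In lung it was at 15.3, 12.5 and 11.6 RPKM in CD24hi cells, 10.3, 13.6 and 9.41 RPKM in CD24lo cells, 11.7, 10.1 and 10.7 RPKM in alveolar cells and 0.527, 0.352 and 0.425 RPKM in EpCAM-negative cells. The 3 lung epithelial populations overlapped. BSCs were 2.17-fold above non-basal cells (log2 1.12 ± 0.12, edgeR adjusted p = 6.27e-07), which were 1.86-fold above CD24lo cells (log2 0.89 ± 0.13, edgeR adjusted p = 1.33e-05). CD24lo and alveolar cells differed by 0.04 ± 0.13 (edgeR adjusted p = 0.84), with a sign that turned without CD24lo library 2 or alveolar library 2.

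*Jup*, or plakoglobin, which also binds the classical cadherins of adherens junctions, varied least across the populations. Its level was 97.0, 105 and 104 RPKM in BSCs and 79.8, 74.4 and 82.0 RPKM in non-basal cells. It was 72.1, 55.8 and 47.7 RPKM in CD24hi cells, 62.0, 52.8 and 49.3 RPKM in CD24lo cells and 56.2, 54.1 and 51.3 RPKM in alveolar cells. EpCAM-negative cells still held 30.2, 25.6 and 29.8 RPKM, so that this gene had 28.1% of the BSC level in a population where *Dsp* had 0.649%. BSCs were 1.29-fold above non-basal cells (log2 0.37 ± 0.13, edgeR adjusted p = 0.0222), and this call was lost with a correction for gene length (0.20, edgeR adjusted p = 0.263) and without BSC library 2 or 3 or non-basal library 2. Neither CD24hi against CD24lo cells (0.10 ± 0.13, edgeR adjusted p = 0.543) nor CD24lo against alveolar cells (0.02 ± 0.13, edgeR adjusted p = 0.907) was called, and each sign turned when a library of mouse 4 was left out. In both airway gates *Jup* ranked the mice as the endothelial markers did, which summed to 454, 202 and 111 CPM in the CD24hi libraries and 569, 202 and 185 CPM in the CD24lo libraries. The ranks differed in alveolar cells, where these markers summed to 103, 200 and 132 CPM, and in EpCAM-negative cells, at 518, 405 and 317 CPM. The part of endothelial RNA in the *Jup* level was not tested.

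*Dsp*, the plakin that links the plaque to keratins, was at 121, 136 and 131 RPKM in BSCs and at 44.0, 43.0 and 47.6 RPKM in non-basal cells. In lung it was at 19.1, 21.8 and 23.3 RPKM in CD24hi cells, 13.2, 18.1 and 17.1 RPKM in CD24lo cells, 10.8, 12.0 and 12.5 RPKM in alveolar cells and 0.904, 0.818 and 0.794 RPKM in EpCAM-negative cells. The populations fell in this order without overlap. BSCs exceeded non-basal cells 2.88-fold (log2 1.52 ± 0.12, edgeR adjusted p = 8.51e-09) and alveolar cells 11.0-fold (log2 3.46 ± 0.12, edgeR adjusted p = 1.01e-13). *Dsp* was the member called higher in CD24hi than in CD24lo cells, by 0.41 ± 0.11 (edgeR adjusted p = 0.00585), with the CD24hi library above the CD24lo library in 3 of 3 mice, although the call was lost when these 6 libraries were fitted alone (edgeR adjusted p = 0.0919).

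*Perp* had the highest level of the 10 members in BSCs, at 390.1, 412 and 422 RPKM, and was at 145, 138 and 155 RPKM in non-basal cells. CD24hi libraries were at 36.6, 56.6 and 63.1 RPKM, CD24lo libraries at 61.5, 88.7 and 76.7 RPKM, alveolar libraries at 20.8, 21.9 and 23.8 RPKM and EpCAM-negative libraries at 5.15, 4.43 and 4.33 RPKM. The airway gates overlapped, while the other populations did not. BSCs were 2.79-fold above non-basal cells (log2 1.48 ± 0.16, edgeR adjusted p = 5.91e-07), and CD24lo cells were 3.41-fold above alveolar cells (log2 1.77 ± 0.17, edgeR adjusted p = 8.18e-08). CD24hi cells were below CD24lo cells by 0.54 ± 0.16 on the log2 scale (edgeR adjusted p = 0.00817), and the within-mouse ratio was below 1 in 3 of 3 mice, at 0.594 to 0.823. This call was lost with library size in place of TMM (edgeR adjusted p = 0.203), with the 6 libraries fitted alone (edgeR adjusted p = 0.076) and without CD24lo library 2 (edgeR adjusted p = 0.0502).

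Each desmosomal family was also divided among its genes, as a share of the family's summed RPKM in a library. *Dsg3* took 29.1%, 33.4% and 35.0% of the desmoglein RPKM in BSCs and 7.14%, 6.67% and 6.67% in non-basal cells. *Dsc3* took 15.1%, 13.6% and 13.2% of the desmocollin RPKM in BSCs and 7.28%, 6.20% and 6.68% in non-basal cells. *Pkp1* took 55.9%, 56.7% and 56.7% of the plakophilin RPKM in BSCs and 16.9%, 14.4% and 16.3% in non-basal cells. BSCs thus had more of the stratified-type gene in all 3 families, with no overlap between the groups. The mean differences were 25.7 points for *Dsg3*, 7.24 points for *Dsc3* and 40.6 points for *Pkp1*, each with p = 0.1 in a two-sided exact permutation test, the smallest p that 3 libraries against 3 can give. This test was unpaired, although both groups came from the same 3 mice. The summed RPKM per library that these shares divide was 126 to 135 for plakophilins in BSCs and 54.0 to 57.2 in non-basal cells.

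*Pkp2* took the place of *Pkp1* as the leading plakophilin outside BSCs. It made up 9.55% ± 0.134 (SD, n = 3) of the plakophilin RPKM in BSCs, 47.2% ± 1.86 (SD, n = 3) in non-basal cells, 60.6% ± 5.20 (SD, n = 3) in CD24hi cells, 60.1% ± 4.44 (SD, n = 3) in CD24lo cells and 66.1% ± 2.44 (SD, n = 3) in alveolar cells. Total plakophilin RPKM in the 3 lung epithelial populations was 33.5 ± 0.506, 30.1 ± 3.33 and 32.1 ± 1.03 (SD, n = 3 each), in the same order, and their ranges overlapped. The *Dsc3* share in CD24lo cells, 12.6%, 13.6% and 12.1%, from 21 to 39 *Dsc3* reads per library, lay above all non-basal values and overlapped those of BSCs. In CD24hi cells it was 1.61%, 3.44% and 2.82%, from 1 to 3 reads. Alveolar and EpCAM-negative libraries had at most 4 desmocollin reads each, too few for a share.

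**Figure D3:**
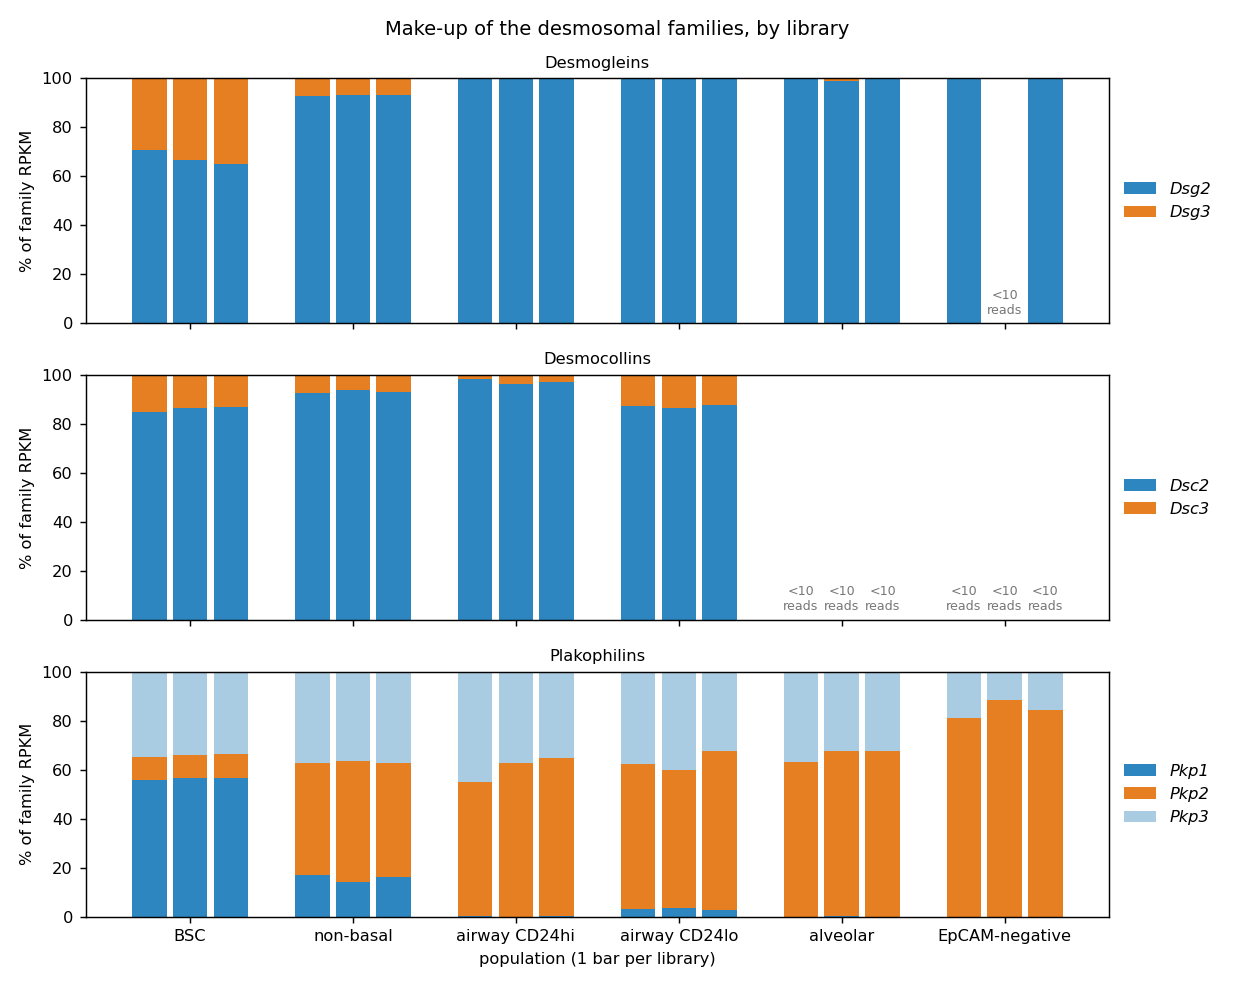
Share (y axis, %) of each gene in the summed RPKM of its family, with 1 bar per library and 3 per population; libraries with fewer than 10 reads in a family have no bar. *Pkp1* holds 55.9% to 56.7% of plakophilin RPKM in BSCs, 14.4% to 16.9% in non-basal cells and at most 3.62% in any lung library.

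Non-basal cells and CD24lo cells carried some basal marker RNA, so the members were set beside the basal genes on the same scale, as a percent of the mean BSC level. In non-basal cells, *Dsg3* was at 6.54%, *Dsc3* at 9.33% and *Pkp1* at 11.9% of the BSC level. The basal keratins *Krt5* and *Krt14* were at 7.79% and 5.41%, *Trp63*, the transcription factor of basal identity, at 12.7%, and *Ngfr*, the gene of the sort, at 10.1%. These 3 members therefore stood in the range of the basal genes, whereas *Dsc2*, at 20.9%, *Dsp*, at 34.8%, *Perp*, at 35.8%, *Dsg2*, at 43.0%, *Pkp3*, at 46.1%, and *Jup*, at 77.4%, were above all 4 of them. *Krt15*, a further keratin of basal cells, was at 47.8%.

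In CD24lo cells the members and the basal genes ranked differently from this. *Trp63* was at 9.30%, *Ngfr* at 7.08%, *Krt5* at 2.78% and *Krt14* at 0.835% of the BSC level. *Dsc2* was at 6.80% and *Dsc3* at 6.19%, while *Pkp1* was at 1.28% and *Dsg3* at 0.0512%, the last from 1 read in 3 libraries. In CD24lo libraries 2 and 3, which had 0 reads of *Dsg3*, a limit of 3 counts corresponds to 0.491% and 0.576% of the BSC level. The summed reads of *Dsg3* and *Dsc3* were 348 and 381 in non-basal cells but 1 and 85 in CD24lo cells. Relative to BSCs, *Dsg3* was thus below *Dsc3* in CD24lo cells by more than the counting limit. In CD24hi cells, *Dsc3* was at 0.387%, *Pkp1* at 0.0763%, *Krt5* at 0.233% and *Trp63* at 0.957%.

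**Figure D4:**
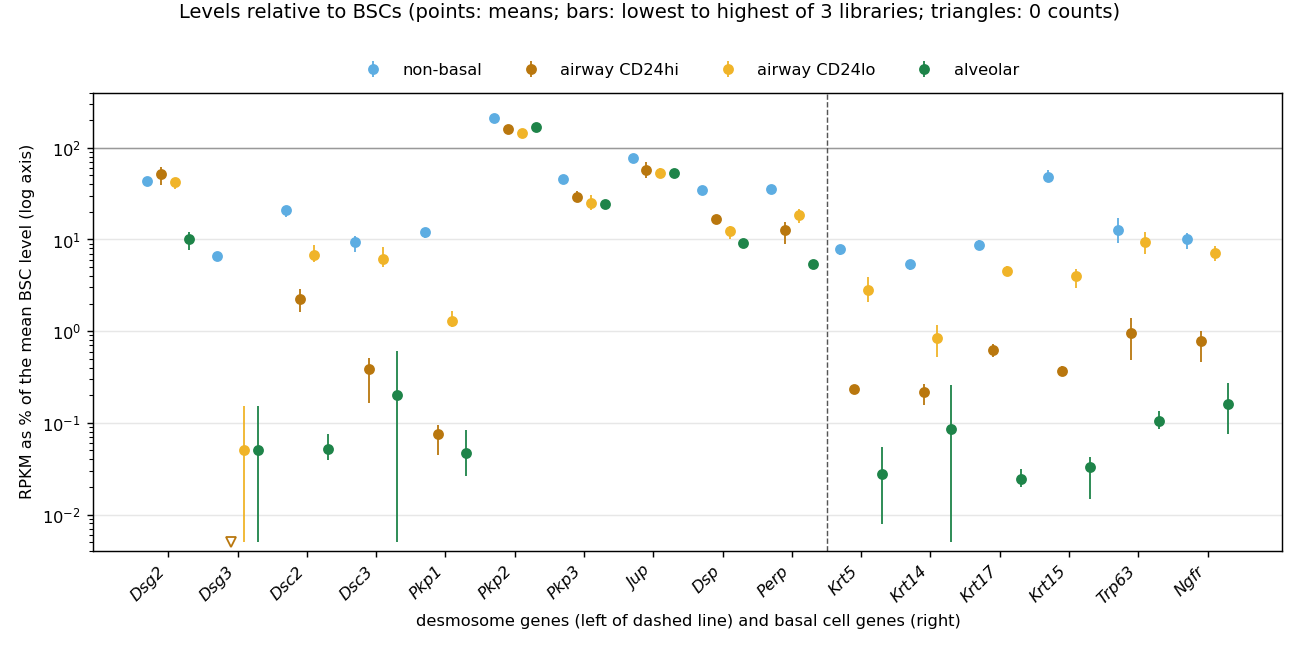
Mean RPKM as a percent of the mean BSC level (log axis) for the 10 desmosome genes and 6 basal cell genes in non-basal, CD24hi, CD24lo and alveolar cells; bars run from the lowest to the highest of 3 libraries, and the triangle marks 0 counts. *Dsg3* and *Dsc3* lie together in non-basal cells (6.54% and 9.33%) and apart in CD24lo cells (0.0512% and 6.19%), and *Pkp2* lies above 100% in all 4 populations.

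Other proteins of the plaque and its partners were taken from lists of related genes. Of 6 desmosome-associated proteins, BSCs had 3 higher and 0 lower than non-basal cells had, and 5 higher and 0 lower against alveolar cells; the medians were 0.36 and 0.84 on the log2 scale. For this list and those that follow, the shares of all genes higher and lower were 21.9% and 26.2% in BSCs against non-basal cells, and 30.5% and 35.6% in BSCs against alveolar cells. Envoplakin (*Evpl*), a plakin of stratified epithelia, was at 25.5 RPKM in BSCs, 20.2 RPKM in non-basal cells, 8.76 RPKM in CD24lo cells, 2.19 RPKM in CD24hi cells and 1.39 RPKM in alveolar cells on average. It was 18.3-fold above alveolar cells in BSCs (log2 4.20, edgeR adjusted p = 1.64e-13), but its log2 difference from non-basal cells was 0.34 (edgeR adjusted p = 0.0405). Periplakin (*Ppl*) ranged less, from a mean of 43.5 RPKM in BSCs to 26.3 RPKM in CD24lo cells among the epithelial populations, and was at 21.8 RPKM in EpCAM-negative cells. The 6 genes gave 2 higher and 2 lower in CD24hi than in CD24lo cells, 2 and 1 in CD24lo than in alveolar cells, 5 and 0 in non-basal than in CD24lo cells, and 4 and 1 in lung epithelium than in EpCAM-negative cells. Over all genes tested, the shares higher and lower in these comparisons were 27.8% and 27.2%, 24.2% and 24.2%, 25.3% and 27.8%, and 33.4% and 35.5%, in the same order, and with so few genes the counts of 2 and 2 and of 2 and 1 lie near them.

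Adherens junction genes, which build the neighbouring type of cadherin junction, had smaller differences between BSCs and non-basal cells than most desmosome genes, a contrast between lists that was not tested. E-cadherin (*Cdh1*) was at 112 RPKM in BSCs, 129 RPKM in non-basal cells and 111 RPKM in alveolar cells on average, with a log2 difference of -0.21 (edgeR adjusted p = 0.0578) for BSCs against non-basal cells and 0.01 (edgeR adjusted p = 0.916) against alveolar cells. Beta-catenin (*Ctnnb1*), the close relative of plakoglobin, was lower in BSCs than in alveolar cells by 0.62 (edgeR adjusted p = 3.76e-05). Of the 6 genes, BSCs had 3 higher and 0 lower than non-basal cells had, with a median log2 fold change of 0.26 beside 1.50 for the desmosome genes. The counts were 3 and 1 for BSCs against alveolar cells, 3 and 2 for CD24hi against CD24lo cells, 0 and 3 for CD24lo against alveolar cells, 5 and 1 for lung epithelium against EpCAM-negative cells, and 3 and 0 for non-basal against CD24lo cells. The shares of all genes in these 5 comparisons were 30.5% and 35.6%, 27.8% and 27.2%, 24.2% and 24.2%, 33.4% and 35.5%, and 25.3% and 27.8%.

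Desmosomes attach to intermediate filaments, and of 10 such genes BSCs had 5 at a higher and 2 at a lower level relative to non-basal cells, with a median of 0.27. *Krt5*, *Krt14*, *Krt15* and *Krt17* were higher in BSCs, with *Krt14* at a log2 difference of 4.21 (edgeR adjusted p = 6.57e-11). The keratins of simple epithelia did not move together. *Krt8* and *Krt18* were lower, by 0.55 (edgeR adjusted p = 0.000154) and 1.01 (edgeR adjusted p = 4.1e-06), *Krt7* was higher by 0.75 (edgeR adjusted p = 0.000106), and *Krt19*, at -0.21, was not called (edgeR adjusted p = 0.163). Against alveolar cells, BSCs had 8 of the 10 genes higher and 2, *Vim* and *Des*, lower. The counts were 2 and 5 in CD24hi against CD24lo cells, 8 and 0 in CD24lo against alveolar cells, 8 and 2 in non-basal against CD24lo cells and 7 and 2 in lung epithelium against EpCAM-negative cells, to be read against the shares of all genes just given for the same comparisons.

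Among 6 transcription factors linked to desmosome genes, 5 were higher in BSCs than in non-basal cells and 1, *Grhl1*, was lower, by 1.12 (edgeR adjusted p = 9.26e-07), with a median of 1.10. *Grhl2*, a grainyhead factor of epithelia, was at 57.9 RPKM in BSCs, 40.4 RPKM in non-basal cells, 21.5 RPKM in CD24hi cells, 19.3 RPKM in CD24lo cells, 13.0 RPKM in alveolar cells and 0.209 RPKM in EpCAM-negative cells on average. These means had the order of *Dsp*, but the CD24hi and CD24lo libraries overlapped in *Grhl2* and their difference was not called (log2 0.16, edgeR adjusted p = 0.191). *Klf4* had another order, with means of 240 RPKM in BSCs and 186 RPKM in EpCAM-negative cells. *Trp63* was at 97.6 RPKM in BSCs, 12.4 RPKM in non-basal cells and 9.08 RPKM in CD24lo cells. All 6 exceeded their alveolar level in BSCs, and 6 of 6 did so in CD24lo cells. Over all genes, 24.2% were higher and 24.2% lower in CD24lo than in alveolar cells. The counts of higher and lower genes were 1 and 4 in CD24hi against CD24lo cells, 2 and 0 in non-basal against CD24lo cells and 3 and 2 in lung epithelium against EpCAM-negative cells, beside 27.8% and 27.2%, 25.3% and 27.8%, and 33.4% and 35.5% of all genes.

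Of 5 genes of desmosome turnover and signalling, *Egfr*, the growth factor receptor, was higher in BSCs than in non-basal cells by 1.91 (edgeR adjusted p = 9.6e-10), *Prkca* and *Atp2a2* were lower by 0.35 (edgeR adjusted p = 0.00663) and 0.31 (edgeR adjusted p = 0.0209), and the sheddases *Adam10* and *Adam17* had log2 differences of 0.00 and 0.07 that were not called. The counts of higher and lower genes were 2 and 1 in BSCs against alveolar cells, 2 and 3 in CD24hi against CD24lo cells, 0 and 2 in CD24lo against alveolar cells, 0 and 4 in lung epithelium against EpCAM-negative cells and 5 and 0 in non-basal against CD24lo cells. Over all genes, these comparisons had 30.5% and 35.6%, 27.8% and 27.2%, 24.2% and 24.2%, 33.4% and 35.5%, and 25.3% and 27.8%, so that with 5 genes several of the counts lie near the share of all genes.

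EpCAM-negative cells, which held 12392 to 13229 CPM of the fibroblast markers *Col1a1*, *Col1a2* and *Pdgfra*, had low levels of most members. The members with the highest means there were *Jup*, *Perp* and *Pkp2*, at 28.5 ± 2.53, 4.64 ± 0.450 and 2.42 ± 0.256 RPKM (SD, n = 3 each). Against the mean of the lung epithelium, *Dsg2* was 56.9-fold higher in the epithelium (log2 5.83 ± 0.23, edgeR adjusted p = 1.33e-13), *Pkp3* 26.7-fold (log2 4.74 ± 0.17, edgeR adjusted p = 4.3e-14), *Dsp* 19.0-fold (log2 4.25 ± 0.13, edgeR adjusted p = 5.41e-15) and *Jup* 1.95-fold (log2 0.96 ± 0.11, edgeR adjusted p = 4.07e-07). Heart muscle also has desmosomes, and 5 cardiac genes (*Myh6*, *Tnnt2*, *Tnni3*, *Actc1* and *Myl7*) summed to 209 to 247 CPM in these libraries, mostly from *Actc1*, with *Myh6* at a mean of 0.402 RPKM. The same genes summed to 64.6 to 125 CPM in CD24hi cells and 20.3 to 48.8 CPM in CD24lo cells. *Tnni3* went the other way, at a mean of 106 RPKM in CD24hi cells and 4.65 RPKM in EpCAM-negative cells. The part of heart muscle cells in the member levels was not tested.

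For each member, the genes with the most similar pattern over the 6 populations were sought among the 10560 genes whose mean over all libraries reached 10 CPM, by the root-mean-square difference of centred mean log2 CPM. Among the 3 closest to *Dsp* were another member, *Pkp3*, at 0.44 log2 units, and *Ripk4*, at 0.50. *Pkp3* itself was closest to *Cdcp1*, at 0.29. *Plekhg6* (0.45) and *Eya2* (0.50) were among the 3 closest to *Perp*. *Dsg2* was closest to the epithelial 14-3-3 protein gene *Sfn* (0.41), and *Pkp2* to *Stard10* (0.17). *Pkp1* was closest to *Serpinb5* (0.60), with *Krt6a* (0.82) and *Krt5* (0.95) next, *Dsg3* to the keratin gene *Krt75* (0.73), *Dsc2* to *Dapl1* (0.57) and *Dsc3* to *Trim29* (0.69). *Jup* had the closest partners of the members, *Arfgef1* (0.08), *Usp10* (0.12) and *Mark2* (0.13), genes with a similarly narrow range. These distances describe 6 means and carry no test.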

How the data were processed

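Per the labels and the study's methods, the authors used Rsubread to align single-end mouse reads to mm10 and featureCounts to assign them to Entrez genes (the submitters' processing notes also name bcl2fastq 1.8.4). They deposited unnormalized read counts and a gene length for each library. A combined table with identical counts was left aside. Groups and mice came from the sample labels; the design text of the series mentions airways of lungs and leaves trachea unnamed. Libraries of a population were separate mice, and no pair was alike within counting noise (chi-square per degree of freedom at least 3.51).

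The filter kept 17989 of 27179 genes, those over 0.2 CPM in 3 or more libraries. After TMM scaling, all 18 libraries entered 1 quasi-likelihood fit (edgeR 4.0.16, glmQLFit and glmQLFTest, in R 4.3.3) with Benjamini-Hochberg adjustment over genes at 0.05. Standard errors are the log2 fold change over the square root of its F statistic. The workflow was tested on simulated counts for BSCs against non-basal cells, where 164 of 200 changed genes were called, along with 8 unchanged genes. The other comparisons were not simulated. RPKM used the deposited gene length. Symbols and coordinates came from the GRCm38.p6 gene table, which matched 25275 identifiers. Ratios to a group with at most 12 reads were given with exact (Clopper-Pearson) 95% intervals, which like the floor of 3 counts cover counting error only. Family shares were compared by exact permutation, without pairing by mouse.

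The members, the lists of related genes and the cell type markers were chosen with earlier results of these data known. Named are the members, genes of these lists and, for each member, up to 3 genes with the smallest distance of group means. Results of 2 such genes are not reported here. Alternatives were limma 3.58.1 voom, DESeq2 1.42.0, RLE factors, scaling by library size, a filter at 1 CPM, no filter at all, fitting the compared libraries alone, mouse within organ as a replicate block, a correction for gene length, thinning to the smallest library and leaving out each library.

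Libraries with the same number within an organ came from the same mouse by the labels, which pairs them. Deviations from the group means correlated at 0.06 to 0.23 for the 3 tracheal pairs and at -0.05 to 0.21 for the 18 lung pairs.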

Additional observations from a re-analysis of the deposited data

How the results depend on the processing

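All 49 calls of a member in a comparison kept their direction under every alternative run for that comparison, and 44 of them stayed past the threshold in each of these. The number of members called changed by more than 1.5 times in a single comparison, CD24hi against CD24lo cells, from 5 to 8 with library size alone and to 3 with the 6 libraries fitted alone; the cause was not tested. Without any one library it was 9 to 10 for BSCs against non-basal cells, 10 for BSCs against alveolar cells, 8 to 9 for non-basal against CD24lo cells, 5 to 7 for CD24hi against CD24lo cells, 6 to 7 for CD24lo against alveolar cells and 8 to 9 for lung epithelium against EpCAM-negative cells. As shares of counts not divided by gene length, the BSC excess was 20.7 points for *Dsg3*, 8.34 points for *Dsc3* and 43.7 points for *Pkp1*, and without any one library the shares differed by 24.4 to 27.4, 6.66 to 7.62 and 39.9 to 41.1 points. The values whose sign turned were all uncalled in the main fit: *Dsg2* in non-basal against CD24lo cells (-0.035 with the length correction, -0.0038 after thinning and -0.073 to 0.103 over the fits that left out a library), *Jup* in CD24hi against CD24lo cells (-0.078 to 0.227), *Jup* in CD24lo against alveolar cells (-0.076 to 0.101) and *Pkp3* in CD24lo against alveolar cells (-0.119 to 0.149). In CD24hi against CD24lo cells, *Dsg2*, *Pkp2*, *Pkp3* and *Jup* became called with library size alone, *Dsg2* with the length correction, *Dsg2* and *Pkp2* without CD24hi replicate 1 and *Pkp3* without CD24lo replicate 2.

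With library size in place of TMM, the middle log2 fold change over all tested genes went from -0.02 to 0.31 for BSCs against non-basal cells, from -0.09 to 0.29 for BSCs against alveolar cells and from -0.06 to 0.21 for CD24hi against CD24lo cells, and the genes called higher and lower became 7780 and 2989, 7924 and 4363, and 7002 and 3233. With mouse within organ as a replicate block, *Dsc3* became called in non-basal against CD24lo cells, so that 9 members were called there, although these populations share no mouse and their libraries are not paired by it; no other member call changed, and the share differences stayed at 25.7, 7.24 and 40.6 points. Genes called with the block were 8896 rather than 8668 for BSCs against non-basal cells. Counts for the lists of related genes moved by more than 1.5 times in 10 of 510 cases. Counts of 0 to 4 reads per library limit *Dsg3*, *Dsc3*, *Pkp1* and *Dsc2* in alveolar and EpCAM-negative cells and *Dsg3*, *Dsc3* and *Pkp1* in CD24hi cells.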
